A study of Oryzias latipes with 6 samples.

Results

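Chromosome 1 is the sex chromosome of the medaka (Oryzias latipes), a small fish with XX females and XY males. Its protein-coding genes were followed here in testes of nphp4 knockout (nphp4-/-) and wild-type fish. In the deposited table of FPKM (fragment numbers relative to the length of the gene and to a total per library that the authors set), 1271 of 24365 rows were protein-coding genes of chromosome 1. Of these, 799 had a mean of at least 1 FPKM over the 3 mutant (MUT) or the 3 wild-type (WT) libraries and are the members described below, and they were 799 of the 15203 rows of any kind that passed the same minimum. The other 472 lay under the minimum, and 98 of those had no read in any library. Ordered by start position, 577 members began at or beyond position 8518350, the start of commd1, and 222 began before it. The chromosome was chosen by its excess of genes whose FPKM differed between MUT and WT in these same libraries, and the division at commd1 was set with those values known, so the MUT against WT values of the members are a description with no test of the chromosome.

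The MUT group consisted of 3 libraries from testes of fish in which nphp4 was knocked out on both alleles (nphp4-/-), and the WT group of 3 libraries from testes of wild-type fish. Each library pooled the testes of 2 fish. The labels do not give the strain, the age or the kind of mutation, or whether the groups came from the same parents. All 6 libraries were made from total RNA with the same kit, and 13438879 to 16054354 reads per library lay on genes.

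Medaka males are determined by dmy (dmrt1bY), a Y-linked copy of the autosomal gene dmrt1 that came to lie on chromosome 1. The medaka X and Y are young sex chromosomes that can hardly be told apart under the microscope, and most of the chromosome carries ordinary genes present on both. Among them is slc2a15b, a transporter gene needed for the white leucophore pigment cells, whose mutant has long been used in medaka as a sex-linked colour marker. The product of nphp4, nephrocystin-4, sits at the ciliary base and helps to control which proteins enter the cilium.

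The targeted gene itself lies on chromosome 7 (ENSORLG00000023493, 571495 to 671521 on the minus strand in the deposited table, whose genome build is not named in the labels). It had 6.84, 7.001 and 10.9 FPKM in MUT testes, against 17.1, 23.5 and 12.2 FPKM in WT testes. All 3 MUT libraries lay below all 3 WT libraries, but MUT 3 came close to WT 3, and the difference of -0.99 on the log2(FPKM + 1) scale (standard error 0.27) had an adjusted p of 0.436 in limma. Whether the row's reads fall inside or outside the altered part of the gene was not tested, and a gene on the opposite strand overlaps it. The row named dmy in the table lies on chromosome 9, where it is described as dmrt1, and no row of chromosome 1 carries that name. It had 82.5, 67.4 and 83.4 FPKM in MUT testes, against 69.7, 89.8 and 54.2 FPKM in WT testes, with overlapping groups. Reads of the Y-linked copy and of the autosomal gene cannot be told apart in that row.

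Transcripts of germ cell and Sertoli cell genes were found in all 6 libraries. The summed level of 3 germ cell genes (dazl, dmc1, piwil1) was 870 to 1033 FPKM in MUT testes and 760 to 1051 FPKM in WT testes, and that of 5 Sertoli cell rows (including amh, gsdf and the row named dmy) was 962 to 1303 FPKM in MUT and 1077 to 1233 FPKM in WT. The 3 ovary rows (figla, gdf9, zp3b), 1 of them over the minimum, summed to 2.93 to 4.58 FPKM in MUT and 4.80 to 5.38 FPKM in WT. Transcripts of digestive tissue genes were found too. For the exocrine pancreas, 4 of 4 rows (CELA1, CPA1, cpb1, prss1) were found, none at 0 in all libraries. They summed to 231, 2030.0 and 2075 FPKM in MUT 1, 2 and 3, against 910, 1120.0 and 14600.0 FPKM in WT 1, 2 and 3. The 5 intestine rows summed to 2.76 to 33.7 FPKM in MUT and to 4.40 to 365.5 FPKM in WT, with WT 3 again the highest. WT 3 therefore stands apart in pancreas and intestine transcripts, and their source was not tested. It did not stand apart in the ovary rows or in the blood gene alas2. That gene had 5.66 FPKM in WT 3, within the 4.08 to 9.09 FPKM of the MUT libraries. The part of WT 3 in the chromosome 1 values was not tested by itself, but the values without it are given below. In pooled bulk tissue, fewer cells of a type and less RNA per cell cannot be told apart.

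At or beyond commd1, 107 of 577 members (18.5%) had an unadjusted p below 0.05 in limma, a linear model fitted on log2(FPKM + 1) over all 15203 rows. Before commd1, 7 of 222 members (3.15%) did. Over all rows tested the share was 7.13%, and among the 14254 protein-coding genes of the other chromosomes it was 6.63%. The same measure chose the chromosome, so nothing is read from these shares beyond their size. No member on either side passed an adjusted p of 0.05 (Benjamini-Hochberg over all rows), a level reached by 0.0592% of all rows, or 9 genes. With limma-voom on the reads recovered from FPKM, also no member passed. There 108 members at or beyond the boundary (18.7%) and 10 before it (4.5%) had an unadjusted p below 0.05, beside 6.91% of all rows. The smallest adjusted p was 0.0696 at or beyond the boundary and 0.193 before it. Each member named below is therefore described by its values, and none of them passed.

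**Figure D1:**
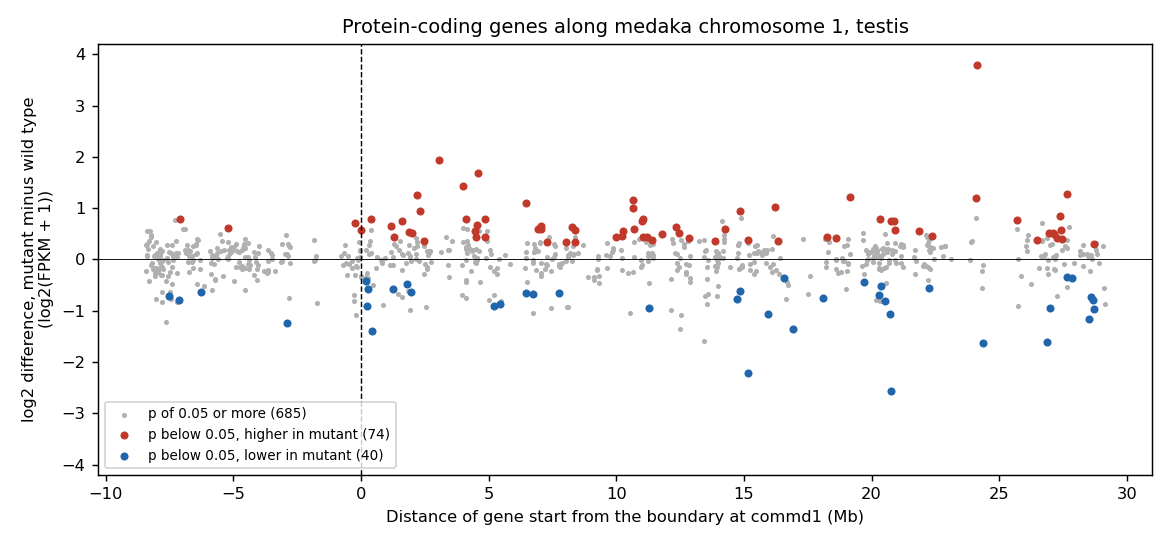
Each point is 1 of the 799 members, placed by the distance of its start from the start of commd1 in Mb (negative before it) and by its log2 difference, MUT minus WT, on the log2(FPKM + 1) scale. Red and blue points have an unadjusted p below 0.05 and are dense right of the dashed line, with 107 there and 7 to its left.

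Genes with a p below 0.05 ran in both directions. At or beyond the boundary 71 members (12.3%) were higher in MUT and 36 (6.24%) were lower, beside 3.32% higher and 3.82% lower over all rows. Before the boundary 3 were higher and 4 were lower, and on the other chromosomes 421 were higher and 524 were lower. The median log2 difference of all 577 members at or beyond the boundary was 0.07, that of the 222 before it 0.02, and that of the other chromosomes 0.01. A positive difference was found for 343 members (59.4%) at or beyond the boundary and for 116 (52.3%) before it, beside 51.3% of all rows.

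The differences at or beyond the boundary were larger in size, but size enters the p behind the choice, so this is no separate support. The median absolute log2 difference was 0.24 at or beyond the boundary, 0.18 before it and 0.17 over all rows. A difference of at least 1 on the log2 scale was found for 26 members (4.51%) at or beyond the boundary and for 3 (1.35%) before it, and 2.46% of the genes of other chromosomes reached it. The spread between libraries of the same group was alike. The median standard deviation of a gene within its group was 0.2346 on that scale at or beyond the boundary, 0.2365 before it and 0.2347 on the other chromosomes. The median level was 8.02 FPKM at or beyond the boundary, 8.43 FPKM before it and 8.79 FPKM elsewhere.

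**Figure D2:**
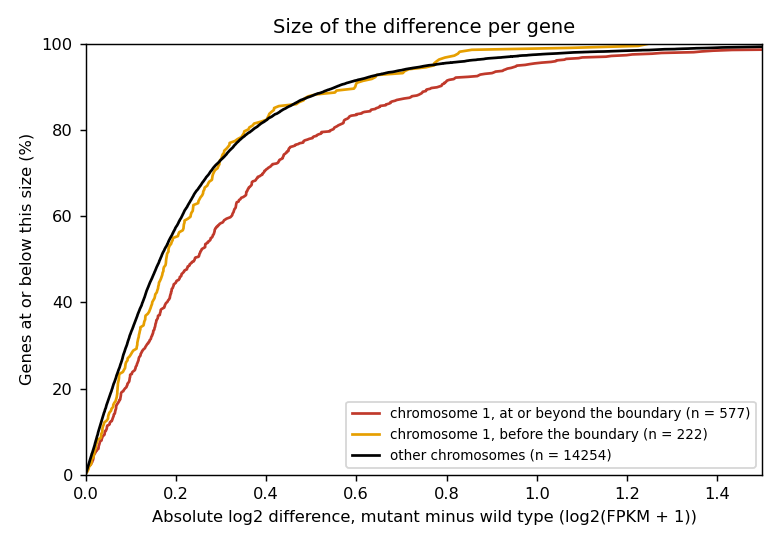
Cumulative share of genes (vertical axis, %) with an absolute log2 difference up to the value on the horizontal axis, for members at or beyond the boundary, members before it and protein-coding genes of other chromosomes. The curve of the members at or beyond the boundary lies to the right of the others, with a median of 0.24 against 0.18 before it.

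Counted without a model, all 3 MUT values lay above or below all 3 WT values for 159 of 577 members (27.6%) at or beyond the boundary and for 30 of 222 (13.5%) before it. The share over all rows was 14.0%. Of the 159, 105 were higher and 54 lower in MUT. Separation rests on the same values as the choice, so these counts too are only a description. WT 3, the library rich in pancreas transcripts, was then left out. Of the members tested in that fit, 111 at or beyond the boundary (19.7%) and 14 before it (6.54%) had a p below 0.05. Over all rows the share was 8.29%. Without MUT 1 the count at or beyond the boundary was 69 (12.1%), and without MUT 3 it was 71 (12.2%). The shares over all rows were 5.23% and 5.58% in those fits. Without WT 2 the count at or beyond the boundary was 80 (13.7%). The count before the boundary was then 20 (9.05%), near the 8.0% of all rows in that fit. With both replicates 3 left out, 17.2% of the members at or beyond the boundary and 10.7% of those before it had a p below 0.05, beside 9.97% of all rows.

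Chromosome 1 stood at the upper end of the chromosomes. Taken whole, 14.3% of its members had a p below 0.05, whereas the other 23 chromosomes ranged from 4.02% to 10.1% with a median of 6.26%. Groups without overlap made up 23.7% of its members and 9.73% to 17.6% of the genes on the other chromosomes. Its median absolute difference of 0.22 lay within the range of the others, 0.14 to 0.22.

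At or beyond the boundary, the differing genes were spread over most windows rather than gathered at 1 place. In 1 Mb windows with at least 10 members, the share with a p below 0.05 ran from 0% to 31.0% over the 24 windows beyond the boundary, with a median of 18.5%, and 1 of the 24 held none. Over the 6 such windows before the boundary it ran from 0% to 6.25%. The window from 8 to 9 Mb holds the boundary and was counted in neither set. In it 7 of 36 members (19.4%) had a p below 0.05, among them CCR7 before the boundary. Neighbouring members at or beyond the boundary differed in the same direction in 325 of 576 pairs (56.4%), those before it in 113 of 221 pairs (51.1%), and neighbours on the other chromosomes in 52.3% of pairs.

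**Figure D3:**
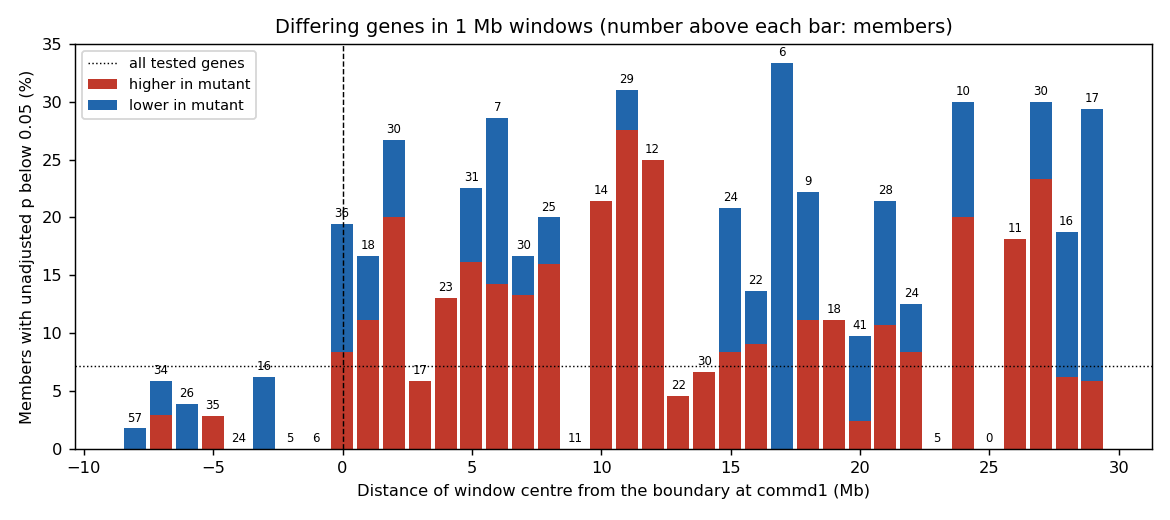
Share of members with an unadjusted p below 0.05 (vertical axis, %) in 1 Mb windows placed by distance from commd1 (Mb), split into genes higher (red) and lower (blue) in MUT, with the number of members above each bar. The dotted line is the 7.13% of all rows tested, and 6 windows before the boundary with at least 10 members all lie under it.

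Among windows with at least 10 members, that from 19 to 20 Mb had the highest share, with 9 of 29 members at a p below 0.05, 8 of them higher in MUT. Among the 8 are uchl1, a deubiquitinase abundant in germ and nerve cells, dctpp1, which removes modified dCTP from the nucleotide pool, and osbp, an oxysterol-binding protein. uchl1 had 206, 190.0 and 152 FPKM in MUT testes, against 123, 142 and 136 FPKM in WT testes, a log2 difference of 0.44. osbp had 8.75, 9.85 and 10.6 FPKM in MUT, against 7.24, 7.20 and 7.25 FPKM in WT, a log2 difference of 0.38 with nearly equal WT libraries. The exception in that window is cpe, the prohormone-processing carboxypeptidase E, with 0.693, 1.12 and 0.900 FPKM in MUT and 1.77, 2.28 and 4.45 FPKM in WT. It met the level minimum through WT alone.

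The window from 35 to 36 Mb held 9 of 30, 7 of them higher. ASF1B, a histone chaperone, had 22.6, 22.8 and 20.2 FPKM in MUT, against 18.1, 14.4 and 13.0 FPKM in WT. The row annotated as the NDUFS8-type iron-sulfur subunit of respiratory complex I (ENSORLG00000014789) had 83.2, 98.9 and 104 FPKM in MUT, against 72.5, 58.2 and 70.4 FPKM in WT. Both had separate groups, with log2 differences of 0.51 and 0.50.

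The 3 members nearest the boundary on each side had log2 differences from -0.41 to 0.58. Before it, cwc25, a splicing factor gene, had 64.9, 65.6 and 64.2 FPKM in MUT, against 65.9, 71.5 and 51.8 FPKM in WT. sp6 had a log2 difference of 0.17 with overlapping groups. scrn2 had 7.85, 6.84 and 7.06 FPKM in MUT, against 9.27, 7.97 and 11.6 FPKM in WT, a log2 difference of -0.35 with separate groups. At the boundary, commd1, which encodes a copper-metabolism and trafficking protein, had 6.43, 6.03 and 4.78 FPKM in MUT, against 3.18, 3.38 and 3.99 FPKM in WT, a log2 difference of 0.58 with separate groups. mdh1aa, the cytosolic malate dehydrogenase, had 74.9, 82.2 and 72.9 FPKM in MUT, against 98.1, 99.5 and 109.7 FPKM in WT, a log2 difference of -0.41 with separate groups. Between them b3gnt2a, a glycosyltransferase gene, had a log2 difference of -0.33 with overlapping groups.

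The share was similar in all classes of level. At or beyond the boundary it was 17.7% of members under 3 FPKM, 20.1% from 3 to 10, 18.3% from 10 to 30 and 17.1% at 30 FPKM or more. On the other chromosomes the same classes had 8.54%, 7.78%, 5.10% and 4.67%. Before the boundary they had 4.84%, 3.17%, 0% and 6.06%.

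**Figure D4:**
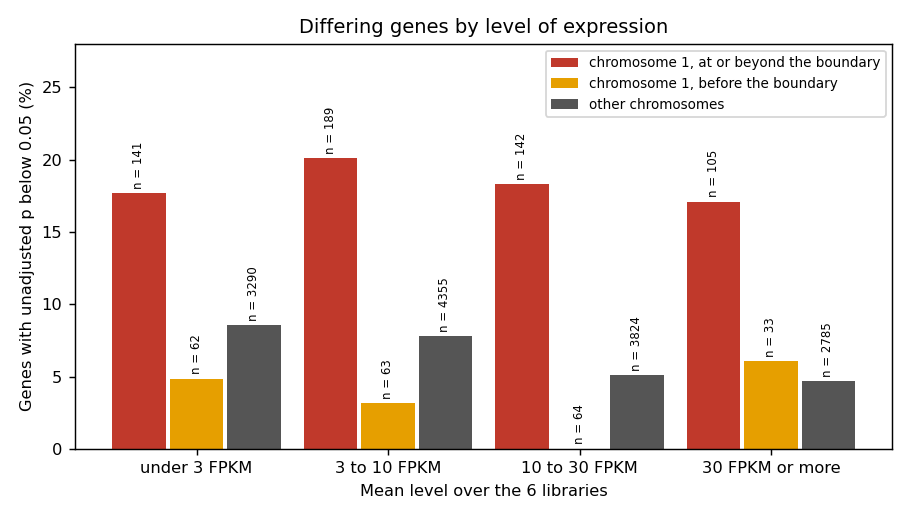
Share of genes with an unadjusted p below 0.05 (vertical axis, %) in 4 classes of mean FPKM over the 6 libraries, for members at or beyond the boundary, members before it and protein-coding genes of other chromosomes, with the number of genes above each bar. The members at or beyond the boundary stay between 17.1% and 20.1% in every class.

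In what the choice did not use, the sides were alike in overlap between genes and differed in density and gene length. At or beyond the boundary 62.2% of protein-coding rows were members, against 64.5% before it, with 19.8 and 26.1 members per Mb. Another gene overlapped 171 members (29.6%) at or beyond the boundary and 67 (30.2%) before it. Members named in this text with an overlap on the same strand include PIK3R6, acp5a, mnd1, ASF1B and CCR7. How reads in the shared part were counted is not given in the sources used here. The median deposited gene length was 2964 bases at or beyond the boundary and 2294 bases before it.

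Among the members with the largest differences at or beyond the boundary, tyrp1b, which encodes a melanosome enzyme of melanin synthesis, had 33.5, 18.7 and 14.3 FPKM in MUT, against 4.77, 5.35 and 4.03 FPKM in WT (1, 11575251 to 11583487). The lowest MUT library was above the highest WT library, as the naming rule required, and the log2 difference was 1.94 ± 0.30 (SE, limma adjusted p = 0.139). slc2a15b, the leucophore gene, had 3.46, 3.00 and 3.10 FPKM in MUT, against 2.65, 1.202 and 0.893 FPKM in WT, a log2 difference of 0.76. These were the 2 pigment cell genes listed that are members, and both were higher in MUT without passing the adjusted test.

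A row matched to smooth-muscle myosin regulatory light chain 2 (ENSORLG00000017848), a part of the contractile apparatus, had 14.7, 17.0 and 12.3 FPKM in MUT, against 3.15, 3.44 and 5.05 FPKM in WT. Its log2 difference was 1.69 ± 0.20 with a limma adjusted p of 0.0696, the smallest on the chromosome. It passed an adjusted p of 0.05 in 4 of 14 alternatives, among them the fit without WT 3 (0.0274), and its adjusted p ran from 0.0166 to 0.433 over the 14, with 0.243 in limma-voom. The smooth-muscle myosin heavy chain myh11a, also a member, had 78.3, 38.9 and 60.6 FPKM in MUT, against 20.6, 27.8 and 117 FPKM in WT, with the highest value in WT 3 and overlapping groups.

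The largest difference of all was in a row matched to CLEC4E (ENSORLG00000014120, 32649628 to 32654975), in mammals a C-type lectin receptor of macrophages. It had 27.0, 36.8 and 24.4 FPKM in MUT, against 9.03, 0 and 0 FPKM in WT. WT 2 and WT 3 had no read and WT 1 lay between them and the MUT libraries, so the WT group differed widely within itself and the log2 difference of 3.80 ± 0.96 had a limma adjusted p of 0.441. The limma adjusted p was 0.602 without WT 2 and 0.502 without WT 3. Without WT 1 the WT values left are both 0, so the 4.91 and the limma adjusted p of 0.00598 found there rest on a group with no spread and are not read as a result. A nearby row described as CLEC4E (ENSORLG00000014128, from 32598077) showed the same order, with 1.44, 2.02 and 1.17 FPKM in MUT and 0.322, 0 and 0 FPKM in WT. Another lectin-type row of that stretch, described as CD209 antigen-like (ENSORLG00000023095), was just outside the minimum and mixed, with 1.33, 1.61 and 0.0465 FPKM in MUT and 0.457, 0 and 0.0555 FPKM in WT. The lectin member elsewhere on the chromosome, a CLEC17A match (ENSORLG00000029164), had overlapping groups. The sequences of these rows were not compared. How reads that match several rows were counted is not given in the sources used here, so the level of each row is uncertain.

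Among the other members higher in MUT, serhl, a serine hydrolase-like gene, had 26.0, 21.9 and 26.4 FPKM in MUT, against 15.7, 7.62 and 7.65 FPKM in WT, a log2 difference of 1.26. hmox2a, a heme oxygenase that breaks down heme, had 2.36, 3.16 and 5.33 FPKM in MUT, against 0.925, 0.384 and 1.34 FPKM in WT, a log2 difference of 1.28. c1qtnf6b, of the C1q and TNF related secreted proteins, had 4.09, 3.10 and 2.28 FPKM in MUT, against 0.802, 0.849 and 1.40 FPKM in WT. In all 3 genes the groups were separate, as the naming rule required. A short row matched to ankyrin-2 (ENSORLG00000025992) had 13 reads over the MUT libraries and none over the WT libraries. Against the 3 reads over the WT group that a count of 0 allows, its mean was 4.34-fold higher in MUT. That value allows for counting error in WT only, with the 13 MUT reads taken as exact. The ankyrin-2 row passed the level minimum through MUT alone, as did hmox2a, grin2bb and ENSORLG00000014128, and the naming rule required separate groups. sh3d19 had 14.1, 14.3 and 40.5 FPKM in MUT, against 11.1, 8.29 and 6.79 FPKM in WT, with a log2 difference of 1.15 that was 0.67 without MUT 3. It overlaps the very abundant rps3a on the opposite strand and whether counting used strand is not given in the sources used here. grin2bb, an NMDA receptor subunit gene, had 1.08, 0.958 and 3.40 FPKM in MUT, against 0.413, 0.549 and 0.172 FPKM in WT, and its log2 difference of 0.94 was 0.56 without MUT 3. The row matched to LRBA (ENSORLG00000022092) had a log2 difference of 1.01 on 24 reads in MUT and 8 in WT.

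**Figure D5:**
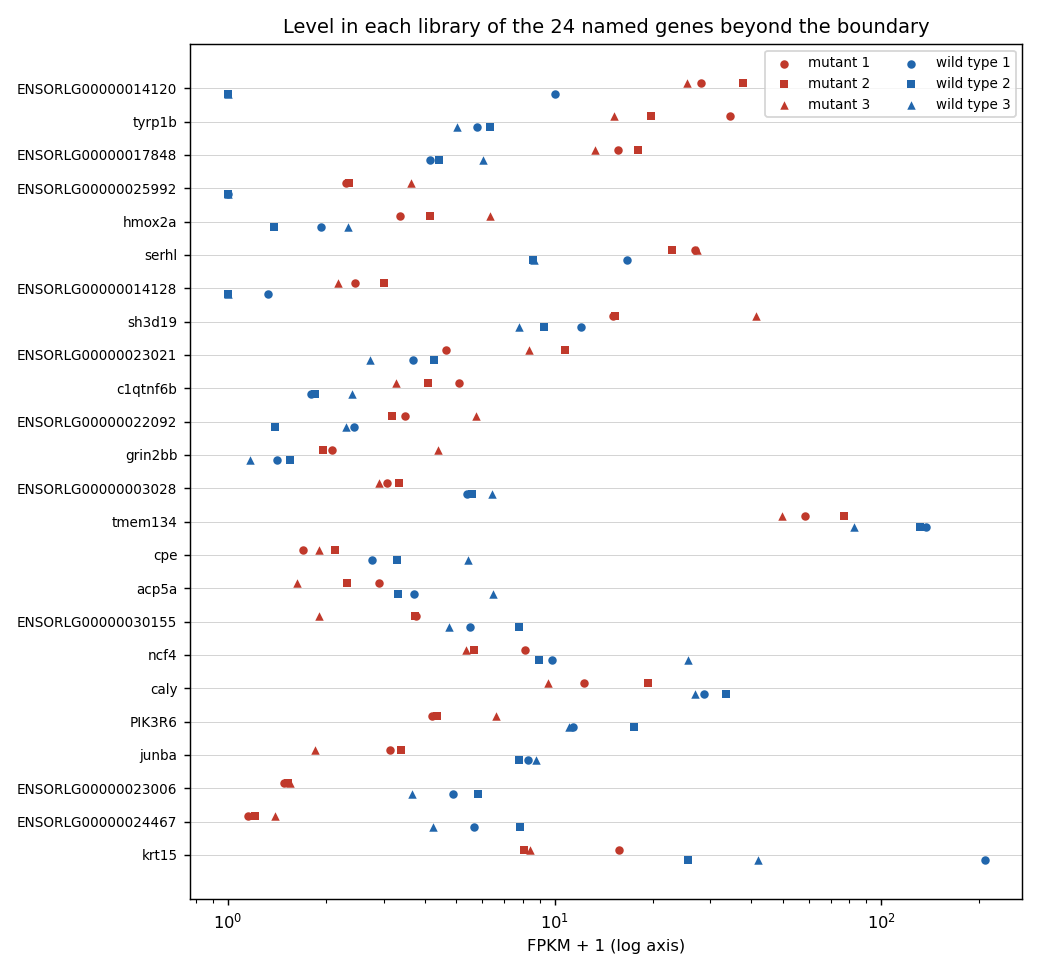
FPKM + 1 in each library (log axis) of the 24 genes at or beyond the boundary with the largest differences in either direction among those with a symbol or protein match, MUT above WT within each gene, with 1 marker shape per replicate number. Groups do not overlap because the rule required it, WT 1 lies nearest MUT for serhl and ENSORLG00000014120, and krt15 has the widest WT spread.

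Of the members lower in MUT, krt15, a keratin gene of epithelial cells, had 14.8, 7.07 and 7.40 FPKM in MUT, against 206, 24.7 and 41.1 FPKM in WT. WT 1 was far above the other WT libraries, and the log2 difference of -2.57 ± 0.81 had a limma adjusted p of 0.566. Its neighbour krt94, also a keratin, was in the opposite order with 442, 381 and 494 FPKM in MUT and 175, 243 and 405.5 FPKM in WT, where WT 3 overlapped the MUT range. The other 2 keratin members, krt97 and krt222, lie before the boundary with log2 differences of -0.70 and -0.82. Both met the level minimum through WT alone.

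A mesothelin-like row (ENSORLG00000024467), matched to a surface protein of the mesothelial lining in mammals, had 0.148, 0.207 and 0.389 FPKM in MUT, against 4.68, 6.86 and 3.26 FPKM in WT. Its log2 difference was -2.21 ± 0.26 with a limma adjusted p of 0.0696. A zinc finger protein row (ENSORLG00000023006) had 0.481, 0.531 and 0.549 FPKM in MUT, against 3.89, 4.83 and 2.66 FPKM in WT, a log2 difference of -1.63 with a limma adjusted p of 0.126. Both rows met the level minimum through WT alone, and the naming rule required separate groups, so their adjusted p-values are given as a description. Without WT 3 both passed in limma, at 0.0274 and 0.0424. Over 13 alternatives the adjusted p ran from 0.0274 to 0.403 for the mesothelin-like row, which passed in 2, and from 0.0424 to 0.472 for the zinc finger row, which passed in 1.

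junba, a subunit of the AP-1 transcription factor and an immediate early gene, had 2.14, 2.39 and 0.847 FPKM in MUT, against 7.31, 6.81 and 7.80 FPKM in WT, a log2 difference of -1.62 ± 0.25 with a limma adjusted p of 0.139. The other immediate early members, ier2b and dusp5, had overlapping groups and log2 differences of 0.33 and 0.08. PIK3R6, a regulatory subunit of phosphoinositide 3-kinase gamma, had 3.21, 3.38 and 5.63 FPKM in MUT, against 10.4, 16.5 and 10.1 FPKM in WT, a log2 difference of -1.39. ncf4, a subunit of the phagocyte NADPH oxidase, had 7.14, 4.68 and 4.36 FPKM in MUT, against 8.83, 7.99 and 24.6 FPKM in WT, with the highest value in WT 3. caly and tmem134, both membrane protein genes, had log2 differences of -1.17 and -0.91, with the separate groups that the naming rule required. acp5a, the tartrate-resistant acid phosphatase of osteoclasts and macrophages, had a log2 difference of -0.96, and the nucleoside transporter row ENSORLG00000003028 and the ADP-ribosyltransferase row ENSORLG00000030155 had -0.91 and -0.97.

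The members matched by symbol to the meiosis, sperm, and spermatogonia and piRNA gene lists were mnd1, PLD6 and nanos3. How many listed genes lie on other chromosomes or under the minimum was not counted. mnd1, which acts in meiotic recombination, had 124, 126 and 107.4 FPKM in MUT, against 107.1, 74.7 and 72.7 FPKM in WT, a log2 difference of 0.51, and MUT 3 and WT 1 nearly met. PLD6, a mitochondrial phospholipase needed for piRNA production in mice, had 27.0, 28.9 and 31.1 FPKM in MUT, against 19.7, 16.9 and 14.3 FPKM in WT, a log2 difference of 0.75. nanos3, a germ cell maintenance gene, had overlapping groups. Of the 3 cell cycle members, ncapg, a condensin subunit, had 36.9, 34.8 and 37.0 FPKM in MUT, against 29.1, 30.3 and 21.4 FPKM in WT, while smc2 and PLK1 overlapped. The 2 cilia genes listed by symbol, cfap52 at or beyond the boundary and ccdc40 before it, had log2 differences of 0.04 and 0.01. A row matched to the axonemal protein CFAP20 (ENSORLG00000023021), which has no symbol and so was not on the list, had 3.67, 9.79 and 7.38 FPKM in MUT, against 2.68, 3.27 and 1.73 FPKM in WT. Its log2 difference was 1.10 with a limma adjusted p of 0.486, and the naming rule required its separate groups.

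Most of the 10 most abundant members were housekeeping genes with small differences. hmgb2a, a chromatin protein gene, had 4016, 4126 and 4356 FPKM in MUT, against 3898, 4257 and 2407 FPKM in WT, with the low value in WT 3. rps3a, a ribosomal protein gene, had 2994, 2654 and 2595 FPKM in MUT, against 3136, 3002 and 3701 FPKM in WT, a log2 difference of -0.25. The 4 ribosomal protein members had 0 with a p below 0.05 and log2 differences from -0.25 to -0.004, although the sign turned for rpl9 and rps6 without WT 3 and for rps6 also under scaling by library totals and without MUT 2 or MUT 3. Among the others, dpy30, sumo2 and prdx2 had log2 differences of 0.13, -0.06 and -0.17. The 5 members matched to the respiratory chain list by the start of their symbol had 0 with a p below 0.05 as well. They include the assembly factor gene ndufaf5 and the readthrough row ATP5MF-PTCD1, which are not plain subunits. The complex I row ENSORLG00000014789 of the 35 to 36 Mb window, which has no symbol, had a p below 0.05. lsm6, an RNA-processing factor, was higher by 0.43 with separate groups. The keratin gene krt94, described above, was also among the 10, higher by 0.75 with overlapping groups. Both had an unadjusted p below 0.05 in limma, and neither passed the adjusted threshold.

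Before the boundary the 7 members with a p below 0.05 were scattered. hoga1, a mitochondrial aldolase of hydroxyproline breakdown, had 40.1, 36.0 and 45.5 FPKM in MUT, against 76.8, 65.5 and 70.5 FPKM in WT, a log2 difference of -0.80 with a limma adjusted p of 0.193. The FGL1 row (ENSORLG00000018617) had 43.9, 40.5 and 66.4 FPKM in MUT, against 68.5, 82.3 and 93.5 FPKM in WT, where MUT 3 and WT 1 nearly met. The Rab-33B row (ENSORLG00000002071) had a log2 difference of -1.25 with its highest value in WT 3, and the RASL10A row (ENSORLG00000027194) had -0.63. MORN4, the chemokine receptor gene CCR7 and the GTPBP2 row (ENSORLG00000000909) were higher in MUT, by 0.78, 0.72 and 0.62.

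At the edge of the level filter, AXIN2 and ENSORLG00000002165 were just inside, at 1.00 and 1.03 FPKM in the higher group, and ENSORLG00000023095 and ENSORLG00000007789 were just outside, at 0.995 and 0.991 FPKM.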

How the data were processed

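RNA-seq of 6 testis libraries was used (3 nphp4-/- and 3 WT, 2 fish pooled in each), with groups taken from the sample titles. The authors deposited 1 table of FPKM per gene and library, with gene coordinates and gene length in bases. Tools listed in the submitters' processing notes, without role or order, are DESeq2 1.20.0, featureCounts 1.5.0-p3, fastp, CASAVA 1.8 and HISAT2 2.0.5; the genome build, annotation release and strand setting are not given in the sources used here. Multiplying FPKM by gene length gave whole reads (100% of values within 0.01 of a whole number), from which the depth of 13438879 to 16054354 reads on genes per library was taken. The total inside the authors' FPKM differs from it, most in WT 3 (13693794 against 15516979).

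log2(FPKM + 1) was fitted with limma 3.58.1 (R 4.3.3; intensity trend, robust) over 15203 rows, those where the MUT mean or the WT mean reached 1 FPKM, and p-values were adjusted by Benjamini-Hochberg over all of them. The script was tested on simulated data. Adding 1 understates the change of low genes. Labels do not say whether the pools came from separate crosses, so p-values and standard errors (±) measure the spread between these libraries. The fold given for the ankyrin-2 row allows for counting error in WT only. The members and lists were chosen with earlier results of these data known. Genes named were the 12 with the largest difference in each direction at or beyond the boundary (p below 0.05, groups separate, with a symbol or protein name), up to 4 each way before it, the 3 nearest it on each side, the 10 most abundant, list members with p below 0.05, slc2a15b and nphp4; other names (uchl1, dctpp1, osbp, ASF1B, ENSORLG00000014789, myh11a, the lectin and keratin rows, list members without a p below 0.05) were chosen after their values were seen. Alternatives covered pseudocount, filter, scaling, limma-voom on recovered reads, a replicate block, libraries left out, biotype, threshold and, added later, members overlapping no other gene. Figures were drawn with matplotlib 3.10.9. Sequences were not used here.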

Additional observations from a re-analysis of the deposited data

How the results depend on the processing

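In all 19 alternatives the share of members called was larger at or beyond the boundary (6.41% to 19.7%) than before it (1.35% to 10.7%). The lowest share on each side was that at a p below 0.01, and the other alternatives used a p below 0.05. All of them reuse the values that chose the chromosome and the division, so the order of the shares is no separate support. Their ratio was smallest, at 1.51, without WT 2 (13.7% against 9.05%). With 1 library left out at a time, the count with a p below 0.05 at or beyond the boundary ran from 69 to 111 (12.1% to 19.7%). That before it ran from 5 to 20 (2.23% to 9.05%), beside 5.23% to 8.29% of all rows. Members past an adjusted p of 0.05 ran from 0 to 3, beside 2 to 18 of all rows in the same fits. Groups without overlap before the boundary ran from 45 to 68. The median log2 difference at or beyond it ran from 0.0513 to 0.0976. With both replicates 3 left out, 23 members before the boundary (10.7%, beside 9.97% of all rows) had a p below 0.05. In that fit 2 members of the chromosome passed the adjusted threshold, beside 18 of the 14860 rows tested. Groups were separate for 312 members at or beyond the boundary and 96 before it, and the median was 0.10. Fewer libraries make separate groups more frequent. The share of all rows with separate groups was taken only for the main fit (14.0%). Counts of separate groups in other settings are therefore not read further. With no filter, 20 members before the boundary (6.17%, beside 7.12% of all rows) had a p below 0.05 and the median was 0.017. At 5 FPKM, 69 members at or beyond the boundary had a p below 0.05 (18.1%, beside 6.07% of all rows). There 1 member passed the adjusted threshold, beside 8 of the 10318 rows tested. Groups were separate for 103 at or beyond the boundary (27.0%) and 16 before it (11.3%), with a median of 0.10 and fewer genes tested. Scaling by library totals gave 1 call among the members, beside 14 of the 15162 rows tested. That scaling gave a median of 0.12 and moved the median of all genes to 0.06. limma-voom gave a median of 0.087, and members overlapping no other gene 0.095, an alternative chosen after seeing the data. Without trend 15 members before the boundary (6.76%, beside 7.54% of all rows) had a p below 0.05. At a p below 0.01 the counts were 37 at or beyond the boundary (6.41%) and 3 before it (1.35%), with no share over all rows taken. Over all rows tested, 9 genes passed the adjusted threshold, 0 with limma-voom (1050 at an unadjusted p below 0.05) and 18 without WT 3. The cause of these changes was not tested.

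The replicate block gave 73 members with a p below 0.05 at or beyond the boundary (12.7%) and 6 before it (2.7%), beside 4.66% of all rows. The labels give same-numbered libraries only a number in common. Their deviations correlated at 0.31, -0.56 and -0.42, and those of other-numbered pairs at -0.44 to 0.61. Whether same-numbered libraries share a cross or a batch was not tested.

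Of the 107 members, 94 were shared with the 108 of limma-voom and 80 with the 111 found without WT 3. With 3 libraries a group and no member past the adjusted threshold, single genes are uncertain, most of all those with few reads.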

Other observations

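Among the 97 members at or beyond the boundary with a p below 0.05 and separate groups, WT 1 was the WT library nearest to the MUT values for 52 (53.6%), WT 2 for 23 (23.7%) and WT 3 for 22 (22.7%). Among the genes of the other chromosomes chosen the same way, the shares were 34.0% for WT 1, 40.7% for WT 2 and 25.2% for WT 3. The nearest MUT library was MUT 1 for 27, MUT 2 for 36 and MUT 3 for 34 of the 97. These counts were made after the values were seen, and their difference was not tested.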
